A study of Arundo donax with 12 samples.

Results

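Cluster-14691.6397, Cluster-14691.14990 and Cluster-14691.27253 are the 3 cell wall unigenes that the study of giant reed (Arundo donax) under cadmium linked to lignin, out of 126668 unigenes in its count table. A unigene is a group of assembled transcripts that stands in for a gene where no reference genome is used. Single stem nodes of the G10 ecotype were grown outdoors in pots of clay soil, and leaf and root were sampled 85 days later from 6 plants. The CK plants received ammonium nitrate to balance nitrogen, and the Cd plants received 4 mg/kg of cadmium nitrate. This gives control leaf (CK_L), cadmium leaf (Cd_L), control root (CK_R) and cadmium root (Cd_R), with 3 libraries each, 12 in all. All plants were of 1 ecotype and 1 soil, each treatment had 3 pots, and there was 1 cadmium dose and 1 sampling time.

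Lignin is a phenolic polymer that stiffens and seals plant cell walls, and in roots it is laid down in vessels and in the barrier around the vascular tissue. Its building blocks, the monolignols, are made inside the cell. Membrane-bound P450 enzymes hydroxylate the precursors, cinnamoyl-CoA reductase turns the CoA esters into aldehydes, and the alcohols made from these are exported and oxidised in the wall by laccases and peroxidases. Monolignols can also be held as glucosides such as coniferin, from which beta-glucosidases free the alcohol.

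The names of the 3 unigenes do not all point to lignin. Cluster-14691.6397 is named laccase-8, an oxidase of the wall, but the study's MapMan list of cell wall functions holds no entry for it. Cluster-14691.27253 is named membrane-associated progesterone binding protein 3 in the study's main list and MSBP in its MapMan list, which files it under monolignol synthesis. In Arabidopsis, MSBP proteins hold the P450 hydroxylases of this pathway together on the endoplasmic reticulum. Cluster-14691.14990 is named cinnamoyl CoA reductase 1 in the main list, whereas the MapMan list gives it as a beta-galactosyltransferase of the pectin rhamnogalacturonan I, an enzyme that builds galactan side chains and has no known step in lignin. Its values are therefore given by its identifier. The MapMan list gives the name cinnamoyl-CoA reductase to another unigene, Cluster-14691.6990, described below with 2 unigenes named coniferin beta-glucosidase. No sequence of these unigenes was at hand, so the names were not checked against a protein. The study's main list also gives an Arabidopsis gene identifier for each member, from alignment, with the lowest identity for the laccase. These Arabidopsis identifiers were not used here to settle the names.

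All 3 unigenes were low in these libraries and higher in root than in leaf, and none differed by a call between Cd_R and CK_R. The libraries held 22157170 to 26033492 expected counts each. Levels are given as the RSEM expected count rounded to a whole number and as counts per 1000000 counts (CPM) scaled by TMM, in which 3 counts are worth 0.0996 to 0.170 CPM. The number of unigenes with any count was 74805 to 80975 in leaf and 81443 to 105247 in root. The 2 highest were CK_R replicate 3 with 100351 and Cd_R replicate 1 with 105247, and these root libraries also stood apart on the second principal component, at 147 and 171 against -119 to -41.4 in the other 4 roots. The study's protein biosynthesis list holds 68 unigenes whose best match is not a grass or has no species given. Their summed level, a possible sign of RNA from other organisms, was 77.2 and 177 CPM in these 2 libraries. It was 14.8 to 28.7 CPM in the other roots and 4.19 to 8.82 CPM in leaf. That list was drawn from unigenes that differed between Cd_R and Cd_L and were not called between CK_R and CK_L. Low leaf values and a lean of Cd_R over CK_R are therefore partly fixed by the choice. Of the 68 unigenes, 59 to 62 were at 0 in each leaf library, 41, 27 and 2 in CK_R and 0 to 1 in Cd_R. The sum was 2.02 times as high in Cd_R as in CK_R (exact two-sided permutation test p = 0.5, where 0.1 is the smallest p that 3 against 3 libraries allow). Its part in the results was not tested, but the differences between groups are also given without the 2 libraries where these bear on them. Organ labels were not checked, since the lists used here name no gene that defines leaf or root.

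The laccase Cluster-14691.6397 was the most uneven of the members among the roots, where its highest library was 26.6 times its lowest, against 8.64 times for Cluster-14691.14990 and 2.57 times for Cluster-14691.27253. Its counts in replicates 1 to 3 were 5, 59 and 145 in CK_R and 79, 12 and 58 in Cd_R. In leaf they were 0, 3 and 13 in CK_L and 4, 0 and 3 in Cd_L. CK_R replicate 1 and Cd_R replicate 2, at 0.181 and 0.430 CPM, lay inside the leaf range. The mean level was 2.45 ± 2.32 CPM in CK_R and 1.76 ± 1.18 CPM in Cd_R, against 0.302 ± 0.386 CPM in CK_L and 0.116 ± 0.102 CPM in Cd_L (SD, n = 3). From CK_R down through Cd_R and CK_L to Cd_L, every pair of neighbours overlapped. The counts of 0 in CK_L replicate 1 and Cd_L replicate 2 allow up to 3 counts, or 0.129 and 0.126 CPM, for counting error only.

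Cluster-14691.14990, the unigene with conflicting names, split the roots in another way. Its counts were 111, 98 and 30 in CK_R and 17, 104 and 134 in Cd_R. They were 16, 2 and 23 in CK_L and 11, 0 and 7 in Cd_L. The low root libraries were CK_R replicate 3 and Cd_R replicate 1, the 2 that stood apart, at 0.996 and 0.579 CPM. The other 4 roots held 3.73 to 5.0 CPM, a mean 5.29 times as high. The group means were 3.10 ± 2.28 CPM in Cd_R, 2.98 ± 1.72 CPM in CK_R, 0.700 ± 0.595 CPM in CK_L and 0.298 ± 0.268 CPM in Cd_L (SD, n = 3), with overlap between all neighbours in that order. Both low roots lay within the leaf range, which reached 1.30 CPM.

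The MSBP scaffold unigene Cluster-14691.27253 was the one member with no overlap between root and leaf. Its counts were 25, 20 and 62 in CK_R and 49, 36 and 46 in Cd_R, against 6, 9 and 1 in CK_L and 12, 3 and 6 in Cd_L. Every root library, from 0.800 to 2.06 CPM, was above every leaf library, from 0.0566 to 0.566 CPM. The means were 1.56 ± 0.234 CPM in Cd_R, 1.26 ± 0.698 CPM in CK_R, 0.338 ± 0.221 CPM in Cd_L and 0.273 ± 0.225 CPM in CK_L (SD, n = 3). In this order the groups next to each other overlapped, except CK_R and Cd_L. Unigene lengths were not used here, so levels are compared within a unigene and not between unigenes.

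**Figure D1:**
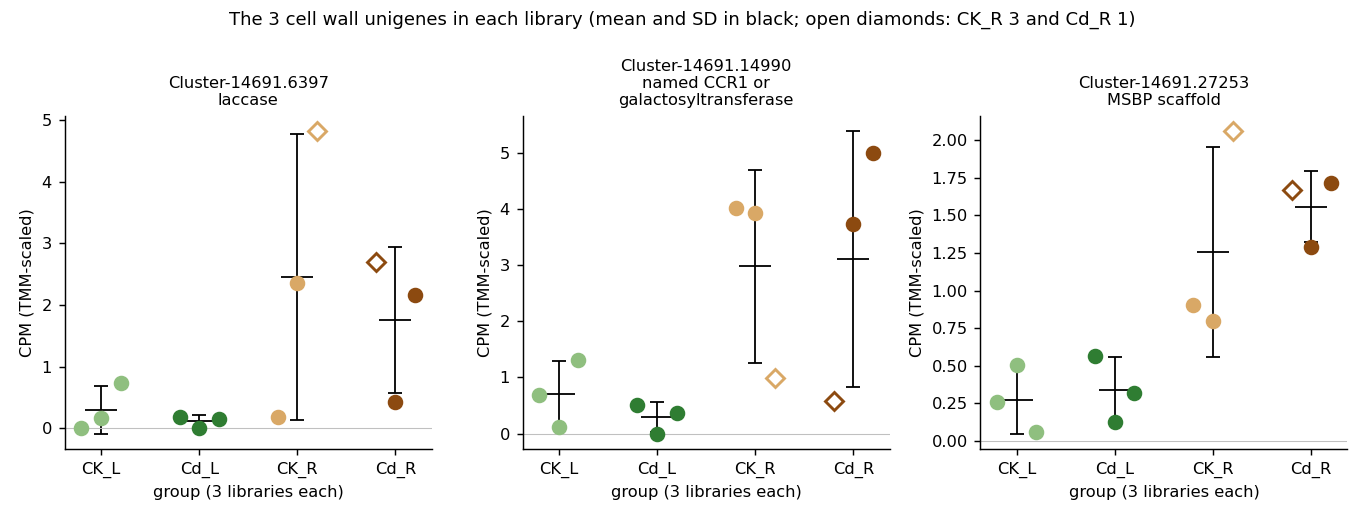
Level of each of the 3 cell wall unigenes in CPM (vertical axis, a separate scale per panel) in the 3 libraries of each group, with the group mean and SD in black and CK_R replicate 3 and Cd_R replicate 1 as open diamonds. The open diamonds are the lowest roots for Cluster-14691.14990, at 0.996 and 0.579 CPM, and the highest for Cluster-14691.6397, at 4.82 and 2.69 CPM, and the roots of CK_R and Cd_R overlap in all 3 panels.

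Roots held most of the counts of each member. Of the CPM summed over 12 libraries, 91.0% was in root for Cluster-14691.6397, 85.9% for Cluster-14691.14990 and 82.2% for Cluster-14691.27253. In bulk organs, more cells of a type and more RNA per cell cannot be told apart. The study had picked these unigenes because they differed between Cd_R and Cd_L and had not been called between CK_R and CK_L, so the organ contrasts are given as a description. On the log2 scale, Cd_R exceeded Cd_L by 3.93 (SE 0.996) for Cluster-14691.6397, by 3.41 (SE 1.09) for Cluster-14691.14990 and by 2.22 (SE 0.526) for Cluster-14691.27253. Calls required an edgeR adjusted p no higher than 0.05 together with a difference of 2-fold or more. In this contrast 40.9% of 54423 unigenes tested were called, 23.0% higher and 17.9% lower. All 3 members were called higher, as the choice of members fixes. Without Cd_L replicate 3 none of the 3 was called, at differences of 4.20, 3.58 and 2.17, with 1 replicate fewer in the fit. Cluster-14691.14990 also lost the call without Cd_L replicate 1 or 2 or Cd_R replicate 2 or 3, at 2.77 to 4.10.

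In control plants the same organ difference had the same sign in every member. CK_R exceeded CK_L by 3.09 (SE 1.33, 95% interval 0.0098 to 6.18) on the log2 scale for Cluster-14691.6397, by 2.11 (SE 0.832, 0.181 to 4.05) for Cluster-14691.14990 and by 2.22 (SE 0.724, 0.536 to 3.90) for Cluster-14691.27253. Of the members only Cluster-14691.27253 was called, where 39.1% of 54084 unigenes were called, 22.3% higher and 16.8% lower. DESeq2, as run here, also called Cluster-14691.27253 alone of the members (DESeq2 adjusted p = 0.0464). Its edgeR call was lost when any 1 of 5 of the 6 libraries was left out, the exception being CK_L replicate 2. Without CK_R replicate 1 the laccase was called, at 3.65, and without CK_R replicate 3 Cluster-14691.14990 was called, at 2.55. Scaling by library totals in place of TMM called all 3, and it also raised the median of all unigenes in this contrast by 0.50.

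Whether the organ difference changed with cadmium was fitted directly over all 12 libraries. The study kept unigenes called between Cd_R and Cd_L but not between CK_R and CK_L. A positive value in this contrast is therefore partly chosen. Cd_R minus Cd_L exceeded CK_R minus CK_L by 0.85 (95% interval -3.24 to 4.94) on the log2 scale for Cluster-14691.6397, by 1.30 (-1.94 to 4.55) for Cluster-14691.14990 and by 0.01 (-2.90 to 2.93) for Cluster-14691.27253. None of the 3 was called, at edgeR adjusted p = 1.00 each, and the background was 0% of 61242 unigenes. Before adjustment 1941 unigenes had p under 0.05, and DESeq2 called 10, in both cases none of the members. Over both treatments, root exceeded leaf by 3.48 (SE 0.962) for Cluster-14691.6397, 2.73 (SE 0.762) for Cluster-14691.14990 and 2.19 (SE 0.483) for Cluster-14691.27253, with all 3 called against 47.9% of unigenes called, 28.0% higher and 19.9% lower. This mean shares the Cd libraries of the choice, so its calls are partly fixed and serve as a description. All 3 were called in this mean with each library left out in turn and with both CK_R replicate 3 and Cd_R replicate 1 left out, when the differences were 2.87, 3.26 and 1.96.

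The effect of cadmium within root is a comparison that the choice of members did not use directly, but its libraries are those of the organ contrasts. Keeping unigenes called between Cd_R and Cd_L but not between CK_R and CK_L favours high Cd_R and low or uneven CK_R values. A lean of Cd_R over CK_R is therefore partly chosen. Cd_R differed from CK_R by -0.50 (SE 1.07, 95% interval -3.04 to 2.05) on the log2 scale for the laccase Cluster-14691.6397, by 0.05 (SE 0.820, -1.91 to 2.00) for Cluster-14691.14990 and by 0.29 (SE 0.460, -0.81 to 1.39) for the MSBP scaffold Cluster-14691.27253. None was called (edgeR adjusted p = 0.999, 1.00 and 0.999), where 0% of 55317 unigenes were called. At an unadjusted p under 0.05 there were 2555 unigenes, and DESeq2 called 186, in both cases none of the members. The intervals of the first 2 hold changes of 2-fold in both directions, and that of Cluster-14691.27253 holds a 2-fold rise but no 2-fold fall.

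These root differences turned on single libraries. Without CK_R replicate 3 the laccase was 0.48 higher in Cd_R, and without CK_R replicate 1 it was 1.05 lower. Cluster-14691.14990 was 0.48 lower without Cd_R replicate 3 and 0.55 higher without Cd_R replicate 1. Cluster-14691.27253 stayed higher in Cd_R with any root library left out, by 0.06 to 0.87. With both CK_R replicate 3 and Cd_R replicate 1 left out the differences were 0.04, 0.13 and 0.81, with edgeR adjusted p of 0.998, 0.966 and 0.790.

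**Figure D2:**
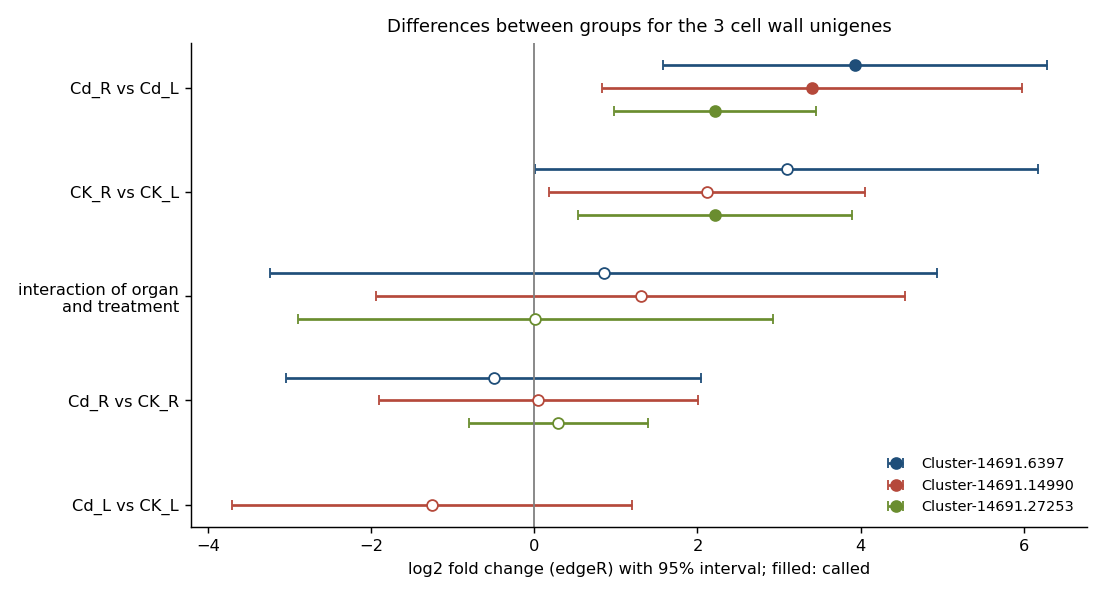
Difference between groups on the log2 scale (horizontal axis) with its 95% interval for the 3 cell wall unigenes in 5 contrasts (vertical axis), filled where called. The organ contrasts lie above 0 in Cd and CK plants, from 2.11 to 3.93, and the intervals of the interaction and of both cadmium contrasts include 0.

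In leaf the members were too low for most tests, and low Cd_L values are favoured by the choice of members. Cluster-14691.6397 and Cluster-14691.27253 did not pass the filter on low counts in the 6 leaf libraries, which summed to 23 and 37 counts. Cluster-14691.14990, with 59 leaf counts, differed between Cd_L and CK_L by -1.26 on the log2 scale (SE 1.06, 95% interval -3.70 to 1.19), and the groups overlapped. It was not called (edgeR adjusted p = 1.00), where 0% of 48194 unigenes were called, 2047 had p under 0.05 and DESeq2 called 73, the member not among either. Over both organs, Cd minus CK was -0.90, -0.59 and 0.30 for Cluster-14691.6397, Cluster-14691.14990 and Cluster-14691.27253. None was called (edgeR adjusted p = 0.964, 0.980 and 1.00) and 0% of 61242 unigenes were, while 3529 had p under 0.05 and DESeq2 called 89, neither including a member.

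The MapMan list of the study places 3 further unigenes in lignin synthesis. Cluster-14691.6990, named cinnamoyl-CoA reductase, the enzyme that commits precursors to monolignols, had counts of 149, 107 and 67 in CK_R and 64, 695 and 461 in Cd_R. In leaf its counts were 4, 36 and 0 in CK_L and 4, 0 and 13 in Cd_L. Cd_R replicates 2 and 3, at 24.9 and 17.2 CPM, were above all other libraries, whereas Cd_R replicate 1, at 2.18 CPM, was the lowest root. Cd_R exceeded CK_R by 1.88 (SE 0.813, 95% interval -0.06 to 3.82) on the log2 scale. It was not called, with an edgeR p of 0.0555 before and 0.999 after adjustment, and an adjusted p of 0.592 by DESeq2. Leaving out 1 root library moved the difference between 1.29 and 2.40, always higher in Cd_R, and with CK_R replicate 3 and Cd_R replicate 1 both left out it was 2.12 (edgeR adjusted p = 0.610). Its interaction was 3.23 (-0.73 to 7.19), and 0.37 without CK_L replicate 2, the leaf library with 36 counts. The study listed this unigene by the same choice as the members, so a positive interaction and a higher Cd_R than CK_R are partly chosen. Over both treatments root exceeded leaf by 4.07 (SE 0.944) for this unigene, which was called.

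The coniferin beta-glucosidases, which release coniferyl alcohol from its glucoside, were high in the 2 roots that stood apart. Cluster-14691.48618 had counts of 847, 782 and 3904 in CK_R and 2995, 658 and 2502 in Cd_R, against 562, 156 and 662 in CK_L and 368, 304 and 427 in Cd_L. CK_R replicate 3, Cd_R replicate 1 and Cd_R replicate 3 were high, at 130, 102 and 93.4 CPM, and the other 3 roots overlapped with leaf. Cd_R differed from CK_R by 0.17 (95% interval -1.63 to 1.97), and by 1.24 without CK_R replicate 3. Cd_L differed from CK_L by -0.42 (-1.52 to 0.68), and root exceeded leaf over both treatments by 1.75 (SE 0.504), which was called.

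Cluster-14691.24845 had counts of 2, 5 and 493 in CK_R and 422, 11 and 129 in Cd_R, against 8 to 26 in the 6 leaf libraries. CK_R replicate 3 and Cd_R replicate 1 held 16.4 and 14.4 CPM, a mean 11.2 times that of the other 4 roots, and 3 of those 4 lay below every leaf library. Its difference of Cd_R from CK_R was 0.21 with all roots (95% interval -4.15 to 4.57), -1.12 without Cd_R replicate 1 and 5.56 without CK_R replicate 3. CK_R differed from CK_L by 2.88, not called, and by -2.39 without CK_R replicate 3, called lower (edgeR adjusted p = 0.0477). Root exceeded leaf by 2.86 over both treatments with all libraries, and with the 2 roots left out the difference was -0.40. The 2 libraries thus held the lowest values of Cluster-14691.14990 and Cluster-14691.6990 among the roots and the highest of Cluster-14691.6397, Cluster-14691.48618 and Cluster-14691.24845. For Cluster-14691.27253, with 1.67 and 2.06 CPM in them, 1 other root lay between.

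**Figure D3:**
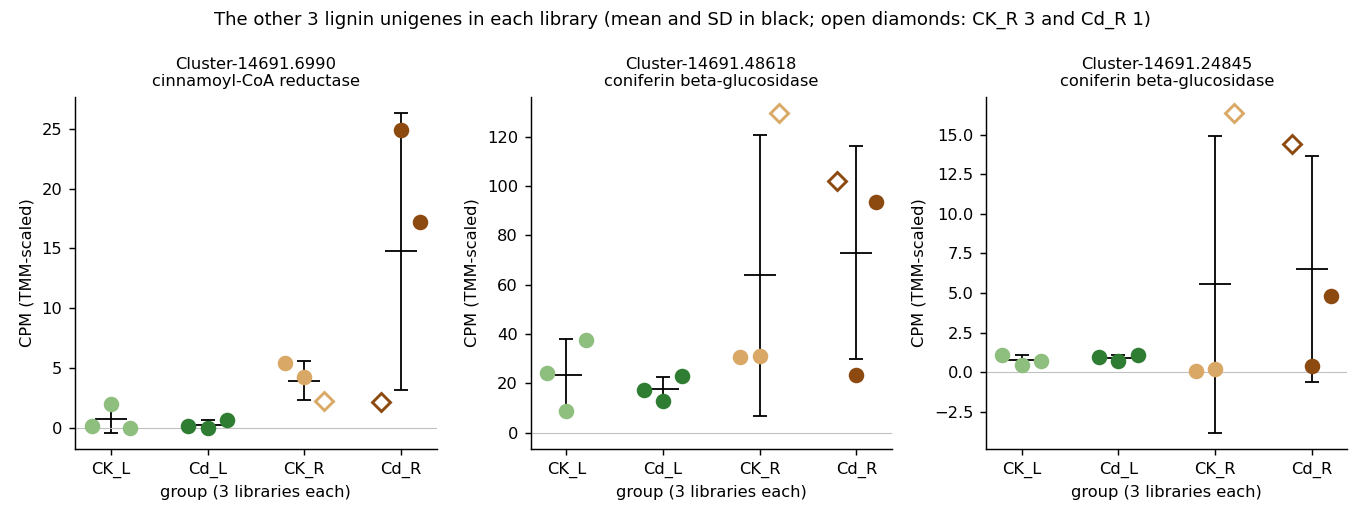
Level in CPM (vertical axis, a separate scale per panel) of the unigenes named cinnamoyl-CoA reductase and coniferin beta-glucosidase in the 3 libraries of each group, with the group mean and SD in black and CK_R replicate 3 and Cd_R replicate 1 as open diamonds. The open diamonds are the lowest roots for Cluster-14691.6990, at 2.23 and 2.18 CPM, and the highest for Cluster-14691.24845, at 16.4 and 14.4 CPM.

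**Figure D4:**
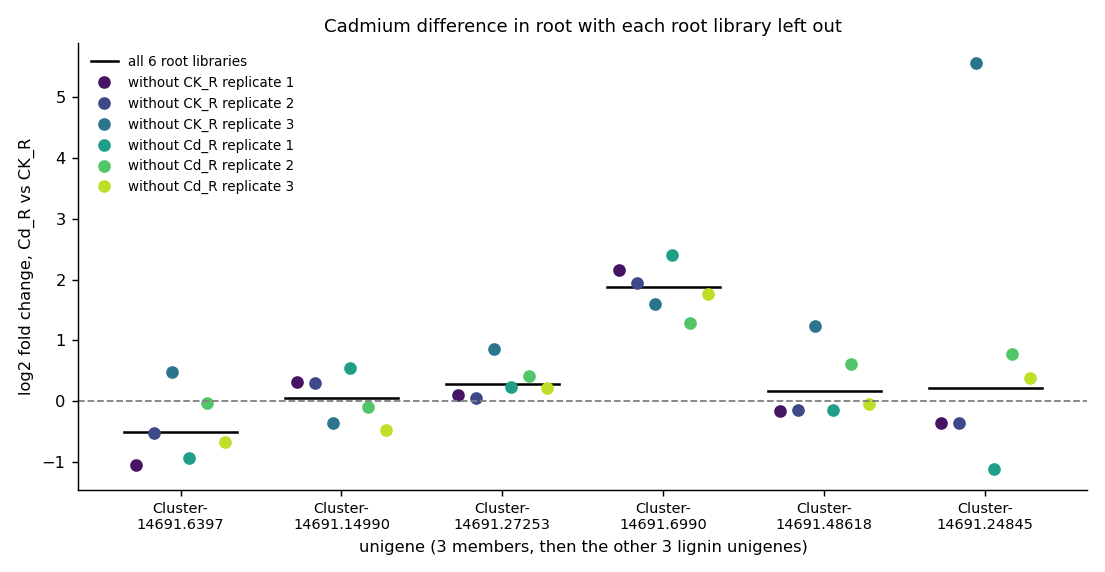
Difference of Cd_R from CK_R on the log2 scale (vertical axis) for the 3 members and the other 3 lignin unigenes, with all 6 root libraries (black line) and with each left out (points). The points of Cluster-14691.6990 run from 1.29 to 2.40 and those of Cluster-14691.27253 from 0.06 to 0.87, all above 0, and the other 4 unigenes have points on both sides of 0.

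Most of the other 13 cell wall unigenes of the study's lists make or modify pectin, glucan and xyloglucan or loosen the wall. The rest include regulatory proteins and a unigene named as a polypeptide precursor. The study listed all 13, like the other lignin and the WRKY unigenes, for differing between Cd_R and Cd_L without a call between CK_R and CK_L. Their organ differences are therefore a description as well. Few calls between CK_R and CK_L are partly fixed by this choice, and an interaction in the direction of the Cd difference is partly chosen. Between Cd_R and Cd_L, 8 of the 10 tested were called higher and 2 lower, as the choice fixes. Between CK_R and CK_L, 3 of 10 were called, all higher, beside 22.3% of all unigenes called higher. Over both treatments, which share the Cd libraries of the choice, 10 of 12 were called higher and 1 lower in root, beside 28.0% and 19.9% of all unigenes. The median log2 difference was 2.13 against 0.08 for all unigenes tested. The 3 called in CK plants were a xyloglucan fucosyltransferase, Cluster-14691.74646, higher by 1.73 (SE 0.571), a CSLF glucan synthase, Cluster-14691.74366, higher by 4.01 (SE 1.36), and an alpha expansin, Cluster-14691.76733, which was at 0 in all 3 CK_L libraries and at 0.332 to 17.1 CPM in CK_R. In this contrast none of the 13 was called without CK_L replicate 1, and 1 without CK_L replicate 2 or 3.

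Over both treatments the fucosyltransferase and the CSLF glucan synthase were again called higher in root, by 2.19 (SE 0.368) and 3.60 (SE 0.921). Pectin genes were among the rest, with Cluster-14691.66836, a pectin methylesterase in the MapMan list and of the invertase and pectin methylesterase inhibitor superfamily in the main list, higher by 2.91 (SE 0.578), and a galacturonosyltransferase, Cluster-14691.32672, higher by 1.37 (SE 0.455). A pectin acetylesterase, Cluster-14691.47175, went the other way, at -0.93 (SE 0.201), lower in root but short of the 2-fold limit of a call. The COB regulator of cellulose deposition, Cluster-14691.74878, was higher by 2.08 (SE 0.440), and an arabinofuranosidase and xylosidase, Cluster-14691.51009, by 1.46 (SE 0.385). Of the expansins, which loosen walls, Cluster-14691.4464 was higher by 5.17 (SE 1.14) and Cluster-14691.76733 was at 0 to 0.0472 CPM in leaf and 0.204 to 17.1 CPM in root. Cluster-14691.8155, EG45-like in the main list and a PNP precursor polypeptide among the hormone unigenes, was at 0 to 0.0472 CPM in leaf and 0 to 27.4 CPM in root, and was called higher as well. Of 2 SHN transcription factors, regulators of cuticle and wall synthesis, Cluster-14691.1688 was higher by 1.09 (SE 0.395) and Cluster-14691.32159 differed by -1.88 (SE 0.536), lower in root. None of the 13 was called in Cd_R vs CK_R, Cd_L vs CK_L, their difference or their mean, by edgeR or DESeq2. At an unadjusted p under 0.05 there were 0 of 12, 3 of 9, 1 of 12 and 1 of 12. Over all unigenes there were 2555 of 55317, 2047 of 48194, 1941 of 61242 and 3529 of 61242 in turn. The 3 in leaf were all lower in Cd_L, a direction that the choice favours. They were Cluster-14691.74878 at -1.55, Cluster-14691.32672 at -1.44 and Cluster-14691.66836 at -2.16.

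WRKY proteins are transcription factors of stress and defence responses, and the study named 6. They were picked by the same choice, so few calls in CK plants are partly fixed and the interaction is partly chosen. In CK plants Cluster-32613.0, WRKY46, differed by -1.86 (SE 0.609), lower in root, the single one called of 1 tested beside 39.1% of all unigenes, a call lost without CK_L replicate 1, 2 or 3 or CK_R replicate 1. Over both treatments 4 were tested and all called, beside 47.9% of all unigenes, and 2 were with both CK_R replicate 3 and Cd_R replicate 1 left out. Cluster-14691.78281, WRKY33, was higher in root by 3.19 (SE 0.829) and Cluster-14691.7255, WRKY50, by 3.77 (SE 1.05), whereas Cluster-32613.0 differed by -2.06 (SE 0.453) and Cluster-14691.59464, a WRKY with no number, by -3.61 (SE 1.06). None of the 6 was called in a cadmium contrast or the interaction by edgeR or DESeq2. At an unadjusted p under 0.05 there was 1 of 4 in the interaction, beside 1941 of 61242 unigenes, and 0 of 2 to 4 in the others.

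The unigenes most like each member were sought among the named ones of the study's lists with a mean of at least 1 CPM, 123 or 124 in number. The measure was Pearson's r of log2 CPM over 12 libraries, which share the split between organs. The study's lists were picked on Cd_R vs Cd_L, as the members were, so a high r is partly fixed by the choice. The laccase Cluster-14691.6397 was nearest to an ACC oxidase of ethylene synthesis, Cluster-14691.11710 (r = 0.893), a phytosulfokine receptor, Cluster-14691.50727 (0.877), and the arabinofuranosidase and xylosidase Cluster-14691.51009 (0.846). Cluster-14691.14990 was nearest to a CrRLK1L receptor of RALF peptides, Cluster-14691.36401 (0.942), a PILS auxin transporter, Cluster-14691.13007 (0.896), and an EIN3/EIL factor of ethylene signalling, Cluster-14691.10463 (0.895). Cluster-14691.27253 was nearest to 3 unigenes of ribosome synthesis or structure, the BRX1 assembly factor Cluster-14691.36626 (0.919), mitochondrial RPL20, Cluster-14691.28670 (0.904), and an rRNA methyltransferase, Cluster-14691.65024 (0.904). Of 61241 other unigenes tested, 31, 8 and 233 had a higher r than the first of these in turn. Unigenes of protein synthesis were 48 of the 124 candidates for Cluster-14691.27253, or 38.7%. With CK_R replicate 3 and Cd_R replicate 1 left out, r with the 9 named unigenes was 0.814 to 0.963, and 2, 2 and 1 of the 3 nearest were kept. By Spearman's rho 2, 2 and 0 were kept, so which unigenes were nearest depended on the measure.

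Among themselves the members had r of 0.509 to 0.665 over 12 libraries. Within the 6 roots, r was 0.574 between Cluster-14691.6397 and Cluster-14691.27253, and -0.544 and -0.580 between these and Cluster-14691.14990. In root Cluster-14691.14990 had r of 0.756 with the cinnamoyl-CoA reductase Cluster-14691.6990, and the other members had -0.496 and -0.118 with it. Cluster-14691.27253 had 0.926 with the coniferin beta-glucosidase Cluster-14691.24845 and Cluster-14691.6397 had 0.779. These values describe 6 libraries, among them the 2 that stood apart, and were not tested. They are not given without these 2, which would leave 4 roots.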

How the data were processed

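RNA was extracted from leaf and root, and poly(A) libraries were sequenced. The authors assembled reads with Trinity and Corset and estimated expected counts per unigene with RSEM, and the table they deposited holds 126668 unigenes in 12 libraries, with 88.6% of values whole. The authors' DESeq2 comparisons were not used. Expected counts were rounded and tested with the quasi-likelihood test of edgeR 4.0.16 (R 4.3.3) after TMM scaling and filterByExpr, on the 6 libraries of 2 groups or on all 12 for the interaction and both means. P-values were adjusted by Benjamini-Hochberg over all unigenes tested, and intervals are 95%. DESeq2 1.42.0, other scalings and filters, the replicate number as a block, 1 fit of all libraries and leaving out libraries were the alternatives. Total counts were 22157170 to 26033492 per library, which limits low unigenes most. CPM levels use TMM over 12 libraries, with log2 CPM on a prior count of 2. The fit was tested on simulated 16-fold changes in 200 unigenes per contrast. It recovered 100% of them in Cd_R vs Cd_L and 94.0% in the interaction. The changed unigenes had higher mean counts than the members, so smaller changes in low unigenes were not covered. Replicates are separate pots. The members, lists and tests were chosen with earlier results of these data known. Named unigenes are the 3 members, the other lignin unigenes, other cell wall and WRKY unigenes called in any contrast but Cd_R vs Cd_L, and the 3 listed unigenes most like each member. The pectin acetylesterase Cluster-14691.47175 was named in addition.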

Additional observations from a re-analysis of the deposited data

How the results depend on the processing

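With no filter on low counts the members called fell from 3 to 0 in Cd_R vs Cd_L and from 1 to 0 in CK_R vs CK_L, where more unigenes were tested, and library totals without TMM called 3 in CK_R vs CK_L. With 1 library left out, 0 to 3 members were called in Cd_R vs Cd_L and 0 to 1 in CK_R vs CK_L. No setting called a member in a cadmium contrast or the interaction, and the root to leaf difference of the members over both treatments was called under every setting. That difference shares the Cd libraries on which the members were chosen, so its calls are partly fixed.

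Some differences that were not called turned with 1 library left out, and their lowest and highest values then were as follows, on the log2 scale. In Cd_R vs CK_R they were -1.05 and 0.48 for Cluster-14691.6397, -0.48 and 0.55 for Cluster-14691.14990, -0.16 and 1.24 for Cluster-14691.48618 and -1.12 and 5.56 for Cluster-14691.24845. In CK_R vs CK_L they were -2.39 (without CK_R replicate 3, called lower at edgeR adjusted p = 0.0477) and 3.46 for Cluster-14691.24845. Between the leaf groups they were -0.80 and 0.10 for Cluster-14691.48618. In the interaction they were -1.01 and 1.73 for Cluster-14691.6397, -0.71 and 0.62 for Cluster-14691.27253 and -1.33 and 5.23 for Cluster-14691.24845. In Cd vs CK over both organs they were -1.21 and 0.026 for Cluster-14691.6397, -0.51 and 1.71 for Cluster-14691.6990, -0.30 and 0.40 for Cluster-14691.48618 and -0.40 and 2.88 for Cluster-14691.24845. The ratio of Cd_R to CK_R in the summed level of the non-grass protein biosynthesis unigenes was 0.726 to 4.06, below 1 without Cd_R replicate 1. The cause of these turns was not tested.

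With both CK_R replicate 3 and Cd_R replicate 1 left out, Cluster-14691.6397 turned to 0.038 in Cd_R vs CK_R, Cluster-14691.24845 to 3.94 in the interaction and -0.40 in root vs leaf over both treatments, and Cluster-14691.48618 to 0.25 in Cd vs CK. In the organ contrasts this setting equals leaving out the 1 library. With no filter, Cluster-14691.27253 was at -0.025 in the interaction.

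Leaf and root came from the same 6 plants, but the labels tie no replicate number to a plant. Deviations of same-numbered leaf and root libraries correlated at 0.083 to 0.197 (CK) and -0.128 to 0.060 (Cd), and no pairing was used. With the replicate block, 2 members were called in Cd_R vs Cd_L (Cluster-14691.14990 at edgeR adjusted p = 0.0970) and 1 in CK_R vs CK_L, which was Cluster-14691.6397 (0.00853) in place of Cluster-14691.27253 (0.0917). The block also called Cluster-14691.6990 (0.0485) and Cluster-14691.48618 (0.0368) in CK_R vs CK_L and lost Cluster-14691.24845 (0.168) in root vs leaf over both treatments. Under the block Cluster-14691.14990 was at -0.15 in Cd_R vs CK_R, Cluster-14691.24845 at 0.28 in the interaction and Cluster-14691.48618 at 0.034 in Cd vs CK. In the other lists, the numbers called under the block in CK_R vs CK_L were 2 of 3 lignin, 6 of 10 cell wall and 0 of 1 WRKY unigenes tested. Without the block 39.1% of all unigenes were called in this contrast.

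Over all unigenes DESeq2 called 186 in Cd_R vs CK_R, 73 between the leaf groups, 10 in the interaction and 89 in Cd vs CK, against 0 each by edgeR. Scaling by library totals moved the median of all unigenes by 0.54 in Cd_R vs Cd_L, 0.16 between the root groups and 0.11 between the leaf groups. Leaf values of the members rest on 0 to 23 counts a library.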
